A study of Mus musculus with 4 samples.

Results

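The genes described here are 8 mouse genes of polyamine metabolism, Odc1, Amd1, Oaz1, Oaz2, Azin1, Srm, Sat1 and Arg1. They were chosen by name, as rows whose gene symbol equals one of these names, from 20714 symbols listed in both assays of the series. For a repeated symbol the highest value was taken. RNA-seq listed all 8 genes, an RPF value was used here for 7 of them, and 6 had a mean of at least 1 FPKM in both assays and entered the tests. Levels were measured in wild-type blastocysts, in 2 RNA-seq libraries (Smart-seq2, polyadenylated RNA) and 2 Ribo-seq libraries (ribosome-protected fragments, RPF, from total RNA). The embryos came from 4-week-old C57BL/6J females crossed to PWK/PhJ males, although the strain label of every library reads C57BL/6N x PWK. They were taken at the 8-cell stage, grown to blastocysts in KSOM medium and freed of the zona pellucida. By the methods of the study, the females had received the hormones PMSG and hCG to induce ovulation. No treatment, genotype or stage differs between the libraries, so the comparison the design allows is RPF against mRNA, which asks how densely each mRNA was occupied by ribosomes.

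Polyamines (putrescine, spermidine and spermine) are small positively charged molecules that bind RNA and are needed for growth and for early mouse development. Ornithine decarboxylase (ODC1) makes putrescine from ornithine, which arginase (ARG1) supplies in liver and some macrophages. S-adenosylmethionine decarboxylase (AMD1) makes the aminopropyl donor with which spermidine synthase (SRM) and spermine synthase (SMS) extend putrescine. The antizymes OAZ1 and OAZ2 bind ODC1 and deliver it to the proteasome, the antizyme inhibitor AZIN1, an inactive relative of ODC1, binds antizymes in its place, and SAT1 acetylates spermidine and spermine for breakdown or export. Several of these genes are textbook cases of translational control by polyamines. Antizyme mRNA needs a +1 ribosomal frameshift at the stop codon of its first frame, and Amd1 mRNA carries a short upstream open reading frame that holds ribosomes when polyamines are high.

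The sequences that carry this control are shown first, on NCBIM37 (the assembly of mm9) with GENCODE vM1 gene models. The antizyme windows lie in exons and hold the frameshift site, with TCC and the TGA stop codon of the first frame in capitals:
Oaz1, chr10:80291025-80291054, + strand: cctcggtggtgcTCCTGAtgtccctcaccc
Oaz2, chr9:65534064-65534093, + strand: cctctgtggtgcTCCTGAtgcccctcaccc
The antizyme windows differed at 2 of 30 bases. The first frame ran for 68 codons in Oaz1 and 32 codons in Oaz2 before this stop, and the letters TCCTGA, read on the sense strand, also ended 1.77% of 21591 annotated coding sequences. An FPKM value carries no position, so the share of ribosomes that passed the site was not measured. GENCODE vM1 does not mark Oaz2 as coding, and its coding length was taken across the shift. The short upstream frame was the same in Amd1 and in its copy Amd2, with the start and stop codons in capitals, in the 5′ UTR of each:
Amd1, chr10:40021961-40021981, − strand: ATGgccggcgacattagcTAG
Amd2, chr10:35431666-35431686, − strand: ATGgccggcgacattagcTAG
Amd1 and Amd2 each have a coding sequence of 1005 bases, which differed at 1 position (G796C, counted from 1 at the start codon, Amd1 base first). The window around it is where a footprint can differ between Amd1 and Amd2, with the differing base in capitals:
Amd1, chr10:40009978-40010006, − strand: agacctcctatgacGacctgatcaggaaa
Amd2, chr10:35430556-35430584, − strand: agacctcctatgacCacctgatcaggaaa
Of 978 windows of 28 bases, a typical footprint length, in the Amd1 coding sequence, 950 were also in Amd2. Another annotated gene, Amd-ps3, also shared windows with both, and 100% of Amd1 windows and 97.1% of Amd2 windows were in another annotated coding gene. The 5′ UTR of Odc1 (410 bases) held 2 ATG and that of Azin1 (590 bases) held 3, in a length class where 91.3% of 2149 genes held at least 1. Sat1 (177 bases) held 2 and Arg1 (102 bases) held 2, whereas Oaz1 (104 bases) and Srm (117 bases) held 0, in a class where 45.4% of 5207 genes held at least 1.

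Odc1 and Sat1 had the highest mRNA levels of the 8 genes and Oaz1 and Sat1 the highest RPF levels. Levels are FPKM, which are per length. The Ribo-seq values fit effective lengths for fragments of mean 200 bases, longer than a footprint. These lengths raise the FPKM of short coding sequences (Sat1 537, Oaz2 570 and Oaz1 681 bases) more than of long ones (Azin1 1347 and Odc1 1386 bases). The order of RPF levels between genes therefore holds in FPKM only. Odc1 mRNA was 211 and 244 FPKM in the RNA-seq replicates (228 ± 23.0, SD, n = 2), and Sat1 mRNA was 206 and 221 FPKM (214 ± 10.7). These ranges overlapped, so the first and second places in the order were not separated. Oaz1 mRNA followed at 111 and 141 FPKM, below both. Srm mRNA was 46.7 and 32.6 FPKM and did not overlap Oaz1 or the genes below it. Oaz2 mRNA was 24.1 and 14.3 FPKM and Amd1 mRNA 20.6 and 16.4 FPKM, with overlapping ranges. Azin1 mRNA was 12.3 and 12.4 FPKM, the lowest level above 0. Among the 20714 symbols, the mean mRNA level of Odc1 was above 98.2%, that of Sat1 above 98.1%, that of Oaz1 above 97.1%, and that of Azin1 above 84.0%.

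In Ribo-seq, Oaz1 was at 343 and 281 FPKM (312 ± 44.4, SD, n = 2) and Sat1 at 251 and 369 FPKM (310 ± 83.1). The ranges overlapped, so these genes were not separated from each other, and both lay above the others in FPKM. Odc1 RPF was 186 and 65.9 FPKM (126 ± 85.2), below Oaz1 and Sat1 in both replicates. Srm RPF was 60.9 and 51.1 FPKM, just under the lower Odc1 value. Oaz2 RPF was 27.98 and 30.84 FPKM, and Azin1 RPF was 21.2 and 3.60 FPKM. Odc1 and Azin1 were thus the members whose RPF replicates lay farthest apart. Among genes of like RPF level (within 2-fold), 95.3% of 1537 had a smaller log2 gap between the replicates than Odc1 and 90.8% of 3030 a smaller gap than Azin1. Among genes of like mRNA level, 60.1% of 451 had a smaller gap than Odc1, 2.13% of 2677 a smaller gap than Azin1, and 90.7% of 2271 a smaller gap than Oaz2.

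Arg1 was listed at 0 FPKM in all 4 libraries. In Ribo-seq, 1 footprint on Arg1 would have been 2.43 and 2.68 FPKM, and a count of 0 allows up to 3 footprints, which are 7.29 and 8.04 FPKM. Other genes of ornithine supply differed in level. Arg2, the mitochondrial arginase, was at 0 and 0.314 FPKM in mRNA and 0 and 2.39 FPKM in RPF. Oat, which interconverts ornithine and glutamate semialdehyde, was at 54.3 and 27.9 FPKM in mRNA and 78.6 and 83.0 FPKM in RPF. Oat was therefore present in all 4 libraries, and Arg2 in 1 library of each assay. Oaz3, the antizyme of the testis, was at 0 in all 4 libraries.

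**Figure D1:**
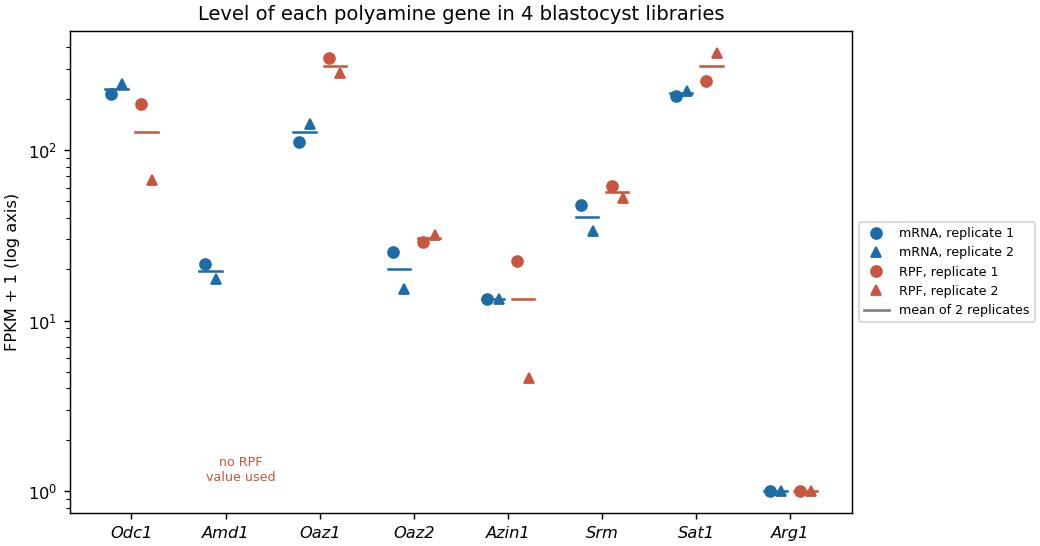
Level of each of the 8 genes as FPKM + 1 on a log axis, with 1 point per library (circles, replicate 1; triangles, replicate 2) and the mean of 2 replicates as a line. Odc1 mRNA lies at 211 and 244 FPKM, its RPF spreads from 65.9 to 186 FPKM, and Arg1 is at 0 in all 4 libraries.

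Each Ribo-seq library was shallow, and the number of footprints behind each level sets how firmly it can be read. The steps in low FPKM values implied totals of 533293 and 483848 footprints, against 5463638 and 5174356 fragments in RNA-seq. At these depths Odc1 rested on 118 footprints in replicate 1 (exact 95% Poisson interval 97.7 to 141) and 37.8 in replicate 2 (26.9 to 52.2). The intervals did not overlap, so the Odc1 replicates differed by more than counting error. Oaz1 rested on 88.0 (70.6 to 108) and 65.3 (50.2 to 82.8) footprints, with overlapping intervals. Sat1 rested on 45.1 and 60.1 and Srm on 23.0 and 17.5. Azin1 rested on 13 (6.92 to 22.2) and 2 (0.242 to 7.22), and Oaz2 on 5.51 in each replicate, where the file's coding length may differ from the one used here. The levels of Azin1 and Oaz2 were thus set by few footprints. Intervals cover counting error only, and PCR copies are not independent molecules.

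**Figure D2:**
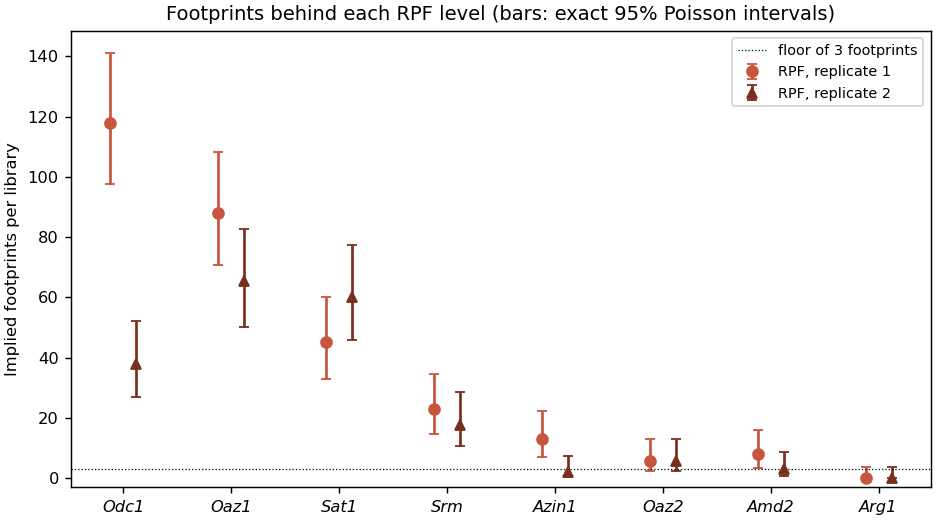
Footprints implied by the RPF level in each Ribo-seq library (circles, replicate 1; triangles, replicate 2), with exact 95% Poisson intervals. Odc1 has 118 and 37.8 footprints with intervals that do not overlap, Azin1 has 13 and 2, and Arg1 has 0 in both.

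The RPF minus mRNA difference was taken as log2(FPKM + 1), with each library centred on its median over the 8327 genes tested, so that 0 means the occupancy of a gene at the medians of both assays. Without centring all differences rise by 1.502, the gap between the assays' medians. A gene passed at a Benjamini-Hochberg adjusted p under 0.05 in limma and a difference of at least 1 in size, and 6.65% of tested genes passed as higher and 5.31% as lower. Of the 6 members tested, 0 passed in either direction and 3 (Odc1, Srm and Sat1, each lower) had an unadjusted p under 0.05, beside 36.3% of all tested genes in either direction and 20% as lower. All 6 differences were below 0, as were 58.3% of all tested genes. After this centring 5 of 6 were below -0.8, as were 30.8% of all tested genes. The cutoff of -0.8 is not the set size of 1 and lies just above the Oaz2 difference (-0.87), so no enrichment is read from it. Of the members, only Odc1 (-2.53) and Azin1 (-1.90) were lower by at least 1, with Srm (-0.998) and Sat1 (-0.99) just short. Without centring, the differences of Oaz1, Oaz2, Srm and Sat1 were above 0. The median of the 6 was -0.99, and that of all tested genes was -0.24.

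Odc1, the first enzyme of the pathway, had the lowest difference of the members, at -2.53 (SE 0.549, 95% interval -4.04 to -1.02). This was lower than in all but 2.76% of tested genes, and the adjusted p was 0.0599 with an unadjusted p of 0.00956. Its difference ran from -3.28 to -0.66 over the alternatives tried, the smallest with no filter on low values. Among those that kept all 4 libraries, it passed with quantile normalization, with a minimum of 10 FPKM and with the intensity trend in limma. Over these the adjusted p ran from 0.0201, with the intensity trend, to 0.441, with no filter. The size rested on which Ribo-seq library was used, at -1.84 without replicate 2 and -3.28 without replicate 1. No call is read from those fits, as a lone Ribo-seq library shows no spread between replicates. The Odc1 coding sequence also shares reads with other places in the genome: 85.1% of its 28-base windows had more than 1 place (at most 14), none of them in another annotated coding gene. The part of these copies in the level was not tested.

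**Figure D3:**
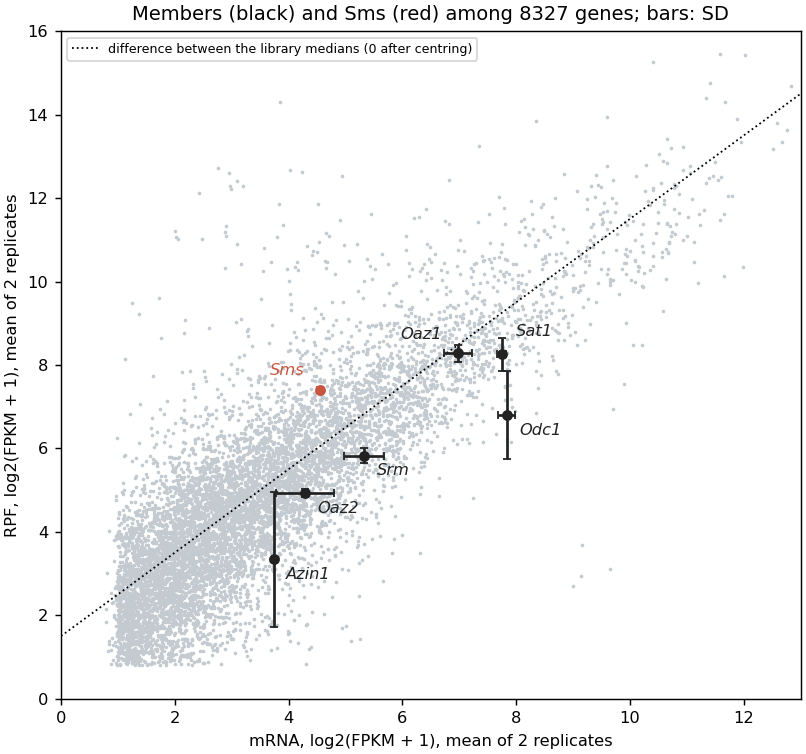
Mean RPF level against mean mRNA level, as log2(FPKM + 1), for the 8327 genes tested (grey), the 6 members (black) and Sms (red), with the SD of 2 replicates as bars. The dotted line is the difference of 1.502 between the assays' medians, and the centred difference of Odc1 is -2.53 and that of Sms 1.35.

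Of the 3 synthesis enzymes tested, Odc1 had the lowest difference, Srm the middle one and Sms the highest. Srm, which makes spermidine, had a difference of -0.998 (SE 0.302, adjusted p = 0.102), lower than in all but 25.1% of tested genes. Sms, which makes spermine from it, was at 22.5 FPKM in both RNA-seq replicates and at 175 and 163 FPKM in the Ribo-seq replicates. Its difference was 1.35 (SE 0.235, 95% interval 0.706 to 2.001, adjusted p = 0.0446), and it passed as higher. The call was lost with a pseudocount of 0.1 (adjusted p = 0.0633), with quantile normalization (0.0525), with the replicate block (0.114) and without either RNA-seq replicate, and the adjusted p ran from 0.00362 to 0.328 over the alternatives. The ratio of Sms to Srm was 0.481 and 0.690 in mRNA and 2.87 and 3.19 in RPF, so the order of the synthases was turned in both replicates of the second assay. With 2 values against 2, an exact permutation test cannot give a two-sided p below 0.333. In Sms 89.4% of 28-base windows had more than 1 place in the genome, and in Srm 17.8%.

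For Amd1, which supplies the aminopropyl donor, no RPF value was used here, whereas the near-identical Amd2 had RPF values of 18.7 and 7.71 FPKM beside mRNA values of 0.00758 and 0.0269 FPKM. The Amd2 footprints numbered 8 (3.45 to 15.8) and 3 (0.619 to 8.77) and, outside the windows that cover the differing base, cannot be told apart from footprints on Amd1. The level carries no position, so whether any footprint covered that base was not tested. In a fit chosen after the values were seen, Amd1 and Amd2 were summed, and the difference was -2.07 (SE 0.462, 95% interval -3.34 to -0.80, adjusted p = 0.0616). The summed pair did not pass in this fit. Over the alternatives that kept all 4 libraries, its adjusted p ran from 0.0310, with the intensity trend, to 0.759. Without Ribo-seq replicate 1 its difference was -2.67 and without replicate 2 it was -1.54.

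The differences of the antizymes were higher than that of Odc1, and the difference between these genes was not tested. Effective lengths raise the RPF FPKM of Oaz1 and Oaz2 more than that of Odc1, and the part of this in the differences was not tested. Oaz1, the more abundant antizyme, had a difference of -0.20 (SE 0.271, 95% interval -0.95 to 0.55, adjusted p = 0.624), with 51.5% of tested genes lower. Without centring it was 1.30 and passed as higher (adjusted p = 0.0244), as 1 of 4113 such genes among 8327. With no filter on low values it was 1.67 and passed as higher (adjusted p = 0.0107), as 1 of 5330 among 20714. With no filter the medians were 0 in RPF and 0.365 in mRNA, so centring did not remove the offset between the assays. Over the alternatives that kept all 4 libraries, the adjusted p of Oaz1 ran up to 0.692. The Oaz2 difference was -0.87 (95% interval -1.85 to 0.11, adjusted p = 0.168). Azin1 was at -1.90, with a wide interval of -4.11 to 0.31 (adjusted p = 0.175). Leaving out Ribo-seq replicate 1, its difference was -3.05 and rested on the 2 footprints of replicate 2. Leaving out replicate 2, it was -0.82. Over the alternatives that kept all 4 libraries, its adjusted p ran from 0.106 to 0.978. In Oaz1 77.2% of 28-base windows had more than 1 place in the genome, in Oaz2 59.9%, and in Azin1 0%.

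The ratio of antizyme to its target was higher in RPF than in mRNA in both replicates. Oaz1 over Odc1 was 0.525 and 0.578 in mRNA and 1.84 and 4.26 in RPF. The sum of Oaz1 and Oaz2 over the sum of Odc1 and Azin1, the proteins that antizymes bind, was 0.604 and 0.606 in mRNA and 1.79 and 4.48 in RPF. The mRNA and RPF values did not overlap, and the RPF replicates were farther apart than the mRNA replicates, as were those of Odc1 itself. Effective lengths raise the RPF ratios, as the coding sequence of Oaz1 (681 bases) is shorter than that of Odc1 (1386 bases). No test was made of these ratios, and the values are given as a description. Oaz1 over Oaz2 was 4.61 and 9.88 in mRNA and 12.3 and 9.10 in RPF, with overlapping ranges. Odc1 over Azin1 was 17.2 and 19.7 in mRNA and 8.78 and 18.3 in RPF, also overlapping.

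**Figure D4:**
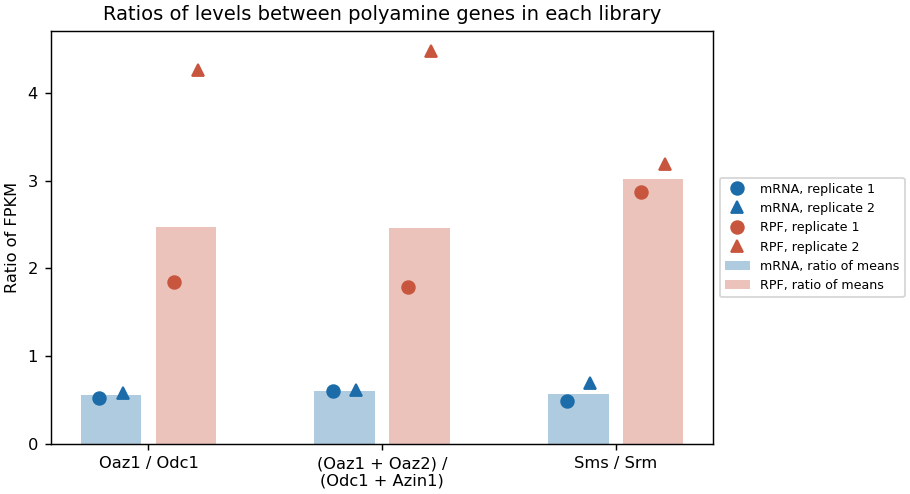
Ratios of FPKM within each library for mRNA (blue) and RPF (red), with points for replicates 1 and 2 and bars for the ratio of the means. Oaz1 over Odc1 is 0.525 and 0.578 in mRNA and 1.84 and 4.26 in RPF, and Sms over Srm is 0.481 and 0.690 in mRNA and 2.87 and 3.19 in RPF.

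Sat1, the acetyltransferase of polyamine breakdown, had a difference of -0.99 (SE 0.325, 95% interval -1.89 to -0.09, adjusted p = 0.116), lower than in all but 25.4% of tested genes. Without Ribo-seq replicate 2 the difference was -1.32. Over the alternatives that kept all 4 libraries, the adjusted p ran from 0.0386 to 0.233. Sat1 over Odc1 was 0.974 and 0.906 in mRNA and 1.35 and 5.602 in RPF. Sat1 thus overlapped Odc1 in mRNA, and in RPF FPKM it lay above Odc1 in both replicates. Effective lengths raise the FPKM of the shorter Sat1 coding sequence. In replicate 1 the RPF levels were 45.1 footprints on 537 coding bases for Sat1 and 118 on 1386 for Odc1, which are close per coding base. In replicate 2 they were 60.1 and 37.8 footprints, so Sat1 was higher per coding base there. The order per coding base was not tested. Paox, the oxidase that acts on the acetylated polyamines, was at 8.17 and 5.50 FPKM in mRNA and 32.9 and 16.5 FPKM in RPF, with a difference of 0.16. Smox, which oxidises spermine directly, was at 0 in both RNA-seq replicates and at 0 and 1.54 FPKM in Ribo-seq. Both steps of the acetylation route were therefore measured in all 4 libraries, and Smox in 1.

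The wider pathway was a list of 33 genes that held the 8 members, of which 22 were tested, 1 passed as higher (Sms) and 1 as lower (Adi1), beside 6.65% and 5.31% of all tested genes. Differences were above 0 for 10 of the 22 and below 0 for 12, beside 58.3% of all tested genes below 0, with a median of -0.33, and for the 16 that were no members 10 were above 0 and 6 below, with a median of 0.09. The genes that make S-adenosylmethionine and recycle methylthioadenosine, the by-product of spermidine and spermine synthesis, were all tested, and 5 of 7 were above 0 and 2 below (median 0.28), where 58.3% of all tested genes were below 0. Mat2a, which makes S-adenosylmethionine, was at 23.9 and 28.7 FPKM in mRNA and 203 and 165 FPKM in RPF, with a difference of 1.26 that did not pass (adjusted p = 0.0556). Adi1, the acireductone dioxygenase of the methionine salvage pathway, was at 90.6 and 77.3 FPKM in mRNA and 44.5 and 67.4 FPKM in RPF. Its difference was -2.10 (SE 0.343, adjusted p = 0.0408). It was -0.60 without centring and did not pass, nor did it pass with a pseudocount of 0.1, with no filter, with the replicate block or without either RNA-seq replicate (adjusted p from 0.00546 to 0.498 over the alternatives). In mRNA Adi1 was thus the most abundant gene of this group, with the other 6 at lower levels in both replicates.

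Spermidine also donates the side chain of hypusine, an amino acid found in the translation factor EIF5A. Eif5a had the highest level of the list in both assays, at 713 and 766 FPKM in mRNA and 3209 and 3269 FPKM in RPF, with a difference of 0.63 that did not pass (adjusted p = 0.150). Dhps, which transfers the side chain, had a difference of -1.09 (adjusted p = 0.127) and Dohh, which hydroxylates it, one of 0.00. Of the transport genes, Slc3a2, the shared heavy chain of several amino acid transporters, was at 36.0 and 39.3 FPKM in mRNA and 145 and 149 FPKM in RPF, with a difference of 0.44, and the polyamine transporter genes Atp13a2 and Atp13a3 were at -0.57 and -0.62. None of the tested transport or hypusine genes passed.

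**Figure D5:**
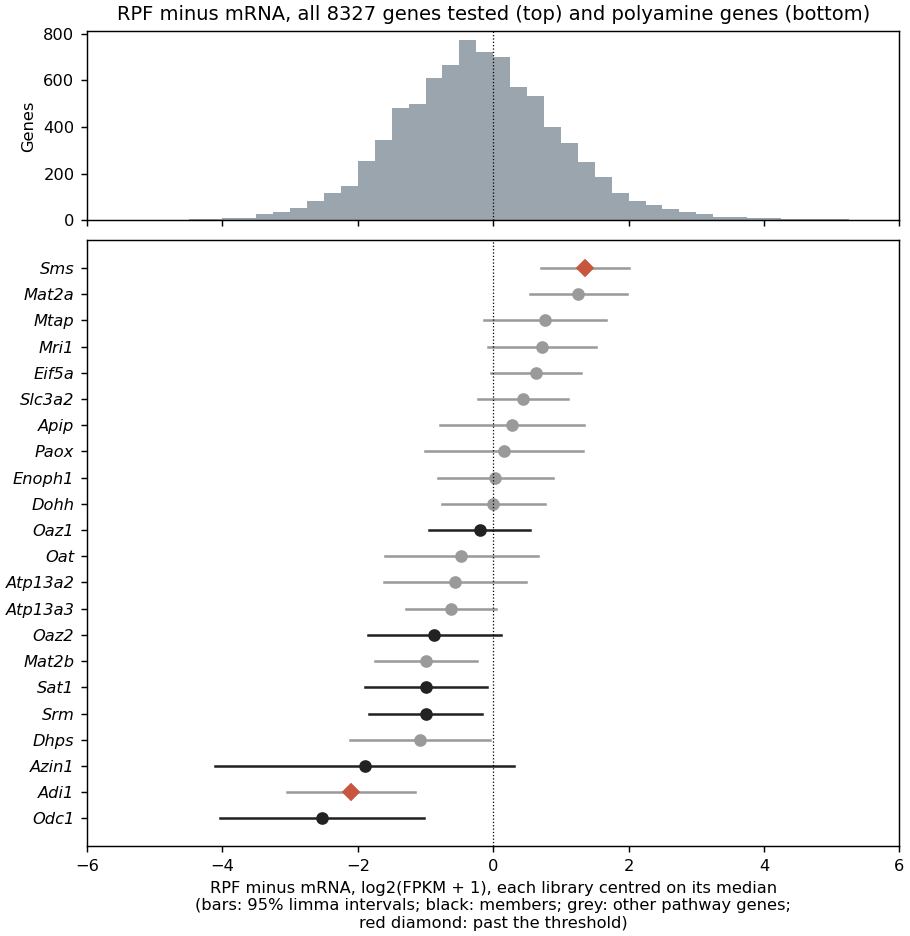
Centred RPF minus mRNA differences (log2) of all 8327 tested genes as a histogram (upper panel, where genes beyond the axis limits are not drawn) and of the 22 tested pathway genes with 95% limma intervals (lower panel; members in black, other genes in grey, genes past the threshold as red diamonds). Sms at 1.35 and Adi1 at -2.10 pass, and Odc1 is lowest at -2.53 with an interval of -4.04 to -1.02. Without centring, all values rise by 1.502, and those of Oaz1, Oaz2, Srm and Sat1 are above 0.

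The genes nearest in level to Odc1 over the 4 libraries, by Euclidean distance of log2(FPKM + 1), were Mrpl18 (0.447), Hikeshi (0.633) and Siva1 (0.670). Those nearest to Oaz1 were Psmc3 (0.139), Psmc2 (0.246) and Capg (0.301). The Odc1 neighbours were farther away than the Oaz1 neighbours.

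The labelled stage was checked against markers. All 6 trophectoderm markers passed the filter on low values, with summed mRNA of 3023 and 2779 FPKM and summed RPF of 5765 and 5321 FPKM. Of the epiblast markers 3 of 4 passed, with summed mRNA of 144 and 57.7 FPKM, which differed between the RNA-seq replicates, and summed RPF of 707 and 846 FPKM. Of the primitive endoderm markers 1 of 4 (Gata6) passed, with summed mRNA of 12.5 and 9.34 FPKM and summed RPF of 154 and 143 FPKM. Of the oocyte markers 0 of 5 passed, with 3 at 0 in all libraries and sums of 0 to 1.92 FPKM. Of the macrophage and blood markers 1 of 6 (Cd68) passed, with 4 at 0, summed mRNA of 4.72 and 2.91 FPKM and summed RPF of 2.40 and 0 FPKM. Of the cumulus and granulosa markers 1 of 6 (Cyp11a1) passed, with 5 at 0. Their summed mRNA was 12.6 and 2.71 FPKM, which differed between the RNA-seq replicates, and their summed RPF 16.3 and 25.4 FPKM. These are whole embryos, so fewer cells of a type and less RNA per cell cannot be told apart in any level given here. Nothing in the labels says that replicates came from separate embryo pools, so the p-values measure only the spread between these libraries, which may be technical.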

How the data were processed

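The authors deposited FPKM for each gene and library, made with Cufflinks 2.2.1 over whole transcripts (RNA-seq) or coding regions alone (Ribo-seq). Before this, they trimmed adapters with Trim Galore 0.4.2 and cutadapt 1.14 and mapped to mm9 with STAR 2.5.3a, keeping reads with up to 20 places; Bowtie2 2.2.2 is also named in the submitters' processing notes. Reads of a gene with near-identical copies can therefore be split between them. Here, RPF minus mRNA was fitted with limma 3.58.1 (R 4.3.3) on log2(FPKM + 1), centred by library, for the 8327 genes with a mean of at least 1 FPKM in both assays, with Benjamini-Hochberg adjustment over all of them. A pseudocount of 1 understates changes of low genes. The fit was tested on simulated data, where it recovered 99.5% of 200 genes changed by a log2 difference of 3 among 8327, with 3.40% of its calls false. Every simulated gene had the same spread, the median over genes, and the simulated difference was larger than that of any member in the main fit. These shares need not hold for genes of wider spread, such as Odc1 and Azin1 (log2 SD of RPF 1.05 and 1.61).

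FPKM carry no counts. Total fragments were estimated from steps in low values, with effective lengths for fragments of mean 200 and SD 80 bases, the Cufflinks default. Within a tolerance of 0.1, 83.9% and 84.3% of Ribo-seq values and 58.3% and 56.9% of RNA-seq values were whole, where chance gives 20%. FPKM depend on gene length, and no count test was run. The members, the pathway list and the marker lists were chosen with earlier results of these data known. Named genes were all members, genes of the pathway list with a mean of at least 1 FPKM in both assays or at 0 in all libraries, and the 3 genes nearest to Odc1 and to Oaz1; Amd2, Amd-ps3, Arg2 and Smox were named after their values were seen. The 28-base windows were counted on the NCBIM37 genome with numba 0.67.0. Python 3.11.15, scipy 1.17.1, numpy 2.4.6 and pandas 2.3.3 served the remaining steps.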

Additional observations from a re-analysis of the deposited data

How the results depend on the processing

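Without centring, the differences of Oaz1 (1.30), Oaz2 (0.63), Srm (0.50) and Sat1 (0.51) turned to above 0, as they did with no filter on low values (1.67, 1.00, 0.87 and 0.88). Oaz1 passed as higher in both, as 1 of 4113 such genes among 8327 without centring and 1 of 5330 among 20714 with no filter. The Odc1 difference stayed below 0 in every alternative tried and passed with quantile normalization (-2.84), with a minimum of 10 FPKM (-2.61) and with limma-trend (-2.53). With that minimum, Srm (-1.08) and Sat1 (-1.07) passed too. In that setting 670 genes passed as lower and 456 as higher, out of fewer genes tested, against 442 and 554 in the main fit. Leaving out 1 library at a time, with a lone library assumed to vary like the others, gave -3.28 to -1.84 for Odc1, -3.05 to -0.82 for Azin1, -1.32 to -0.73 for Sat1, -1.26 to -0.73 for Srm, -1.24 to -0.50 for Oaz2 and -0.36 to -0.04 for Oaz1. The summed Amd1 and Amd2 (an alternative chosen after seeing the data) gave -2.01 with quantile normalization, -2.07 with limma-trend and -2.67 to -1.54 without 1 library.

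The 996 genes past the threshold became 462 with a pseudocount of 0.1, 4178 without centring (4113 higher, 65 lower, against 554 and 442), 5488 with no filter, 1577 with limma-trend, and 0 to 2827 without 1 library. The 2 pathway genes became 0 with a pseudocount of 0.1 (8 at an unadjusted p under 0.05), 11 without centring, 13 with no filter, 7 with a minimum of 10 FPKM, 4 with limma-trend and 0 to 6 without 1 library. With the replicate number as a block, limma called 0 genes (2594 at an unadjusted p under 0.05) and 0 of the pathway (7 at an unadjusted p under 0.05). The deviations of same-numbered libraries correlated at 0.00994 across genes. With 1 replicate difference per assay, this value cannot tell whether same-numbered libraries share an embryo pool.

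When both assays had to reach a mean of 1 FPKM, percentiles of mRNA and RPF were 95.6 and 81.5 for Odc1, 69.5 in mRNA for Amd1, 92.8 and 90.5 for Oaz1, 70.3 and 54.0 for Oaz2, 60.4 and 32.8 for Azin1, 82.1 and 68.2 for Srm and 95.4 and 90.5 for Sat1. Without 1 library, the mRNA percentile of Azin1 ran from 84.1 to 84.2. The RPF ratios ran from 1.84 to 4.26 for Oaz1 over Odc1, 1.79 to 4.48 for the summed ratio, 8.78 to 18.3 for Odc1 over Azin1 and 1.35 to 5.602 for Sat1 over Odc1. With plain coding lengths, Sat1 had 60.7 and 81.2 footprints. The Ribo-seq depth limits Azin1, Oaz2 and Amd2, each on 13 footprints or fewer.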
